A study of Mus musculus with 10 samples.

Results

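The genes described here are 10 markers of mesothelial cells and of simple epithelium in cultured mouse lung fibroblasts. They are the 6 mesothelial genes Msln, Upk3b, Upk1b, Wt1, Lrrn4 and Bnc1 and the 4 keratin genes Krt7, Krt8, Krt18 and Krt19. They were chosen by gene name from the 54532 genes of the count table, and all 10 passed the filter on low counts that left 14360 genes for testing. Poly(A) RNA was sequenced from primary lung fibroblasts kept at baseline in DMEM, a standard culture medium, with 10% fetal bovine serum (FBS). Wild-type cultures (5 libraries) were compared with cultures of Mrc2 knockout cells (5 libraries), and the series asks whether loss of Mrc2, an endocytic receptor for collagen, alters fibroblast proliferation. The sources used here do not give the strain, age or sex of the mice or the kind of Mrc2 allele. The titles number biological replicates without saying whether each is another mouse, so p-values measure the spread between these libraries, which may be technical. All libraries carry the same batch label.

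Mesothelial cells form the thin epithelial sheet that covers the lung and lines the pleural cavity. They arise from mesoderm, carry both epithelial and mesenchymal features, and in the mouse embryo contribute cells to the lung mesenchyme. Keratins are the intermediate filament proteins of epithelial cells. A type II keratin (Krt7, Krt8) always pairs with a type I keratin (Krt18, Krt19) to build a filament, and these simple-epithelial keratins are made by mesothelium and by the epithelium of airways and alveoli, while fibroblasts rely mainly on vimentin. In a culture of dissociated lung tissue, such transcripts can come from a minority of cells.

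Fibroblast markers were abundant in every library. The summed level of 8 fibroblast markers (Col1a1, Col1a2, Col3a1, Pdgfra, Pdgfrb, Thy1, Dcn and Lum) was 12574 to 24037 CPM (counts scaled to the library's total count) in wild type, against 19602 to 37803 CPM in knockout. The targeted gene Mrc2 was at 843 ± 176 CPM in wild type against 242 ± 30.4 CPM in knockout (SD, n = 5 each), with no overlap between groups (log2 fold change -1.80, SE 0.17, edgeR adjusted p = 0.0029). Libraries held 19603933 to 29944615 counts, and 3 counts, taken as the floor of detection, equalled 0.1002 to 0.153 CPM in a library (counting error only). Over all tested genes, edgeR's quasi-likelihood test called 2 genes at a Benjamini-Hochberg adjusted p under 0.05, both lower in knockout. Leukocyte markers were also present, with a summed level of 8 genes of 2280 to 11279 CPM in wild type and 2723 to 6088 CPM in knockout.

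The gene models place Krt7, Krt8 and Krt18 on chromosome 15, where 23.7 kb separate Krt8 from Krt18 and the genes are transcribed away from each other. Of the 10 genes, 6 matched a RefSeq promoter (GRCm38.p6, the assembly called mm10). The windows of 280 bases shown here run from 250 bases before to 30 bases after the RefSeq start. They are those of the keratin partners Krt8 and Krt18, and of Krt7 and Upk3b, genes of different families whose levels followed each other over the libraries (r = 0.922). Capitals mark matches, on either strand, to TATAAA (the TATA box), GGGCGG (the GC box bound by Sp1 proteins), TGANTCA (AP-1) and GGAATG (TEAD). In order, the windows are chr15:102004313-102004592 (minus strand), chr15:102027966-102028245 (plus strand), chr15:101412153-101412432 (plus strand) and chr5:136038246-136038525 (plus strand).
Krt8: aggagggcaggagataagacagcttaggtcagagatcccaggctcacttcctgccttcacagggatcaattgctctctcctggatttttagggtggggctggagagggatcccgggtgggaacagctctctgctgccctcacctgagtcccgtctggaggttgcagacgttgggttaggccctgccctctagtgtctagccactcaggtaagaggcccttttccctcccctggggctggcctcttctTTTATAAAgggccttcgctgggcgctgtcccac
Krt18: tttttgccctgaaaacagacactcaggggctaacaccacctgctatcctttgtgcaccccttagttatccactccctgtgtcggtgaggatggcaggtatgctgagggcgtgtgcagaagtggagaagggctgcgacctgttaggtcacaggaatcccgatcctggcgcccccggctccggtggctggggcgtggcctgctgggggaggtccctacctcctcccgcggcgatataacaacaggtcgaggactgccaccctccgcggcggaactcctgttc
Krt7: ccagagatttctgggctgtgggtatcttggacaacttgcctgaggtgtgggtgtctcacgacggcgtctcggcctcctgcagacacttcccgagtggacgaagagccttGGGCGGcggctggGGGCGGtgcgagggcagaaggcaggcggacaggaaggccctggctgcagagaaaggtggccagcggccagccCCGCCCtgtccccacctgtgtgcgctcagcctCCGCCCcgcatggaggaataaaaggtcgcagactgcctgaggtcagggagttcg
Upk3b: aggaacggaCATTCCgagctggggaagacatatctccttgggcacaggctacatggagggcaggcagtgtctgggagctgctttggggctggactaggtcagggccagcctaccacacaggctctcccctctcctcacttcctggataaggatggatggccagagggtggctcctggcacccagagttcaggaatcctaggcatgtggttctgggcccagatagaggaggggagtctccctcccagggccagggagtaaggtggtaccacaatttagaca

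The 4 windows did not share any of the searched letters. TATAAA was found in Krt8 alone of the 6 matched genes, and in 13.1% of all 32851 promoter windows. The Krt8 matches overlap on both strands and begin at positions -3 and -1 relative to the RefSeq start, so they span the start itself. GGGCGG was found in Krt7 and Bnc1 (34.7% of all windows), with 4 matches in Krt7. GGAATG was found in Upk3b and Lrrn4 (13.9% of all windows), and TGANTCA in 0 of the 6 (7.46% of all windows). A match is a run of letters, and no binding was measured.

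Mesothelial genes were detected in every library, at levels that ranged widely within each genotype. Msln encodes mesothelin, a surface protein of mesothelial cells anchored to the membrane by a lipid (ENSMUSG00000063011; mm10 chromosome 17, 25748614 to 25754327, minus strand). Its level was 19.7, 4.40, 9.32, 30.9 and 7.11 CPM in wild-type replicates 1 to 5. In knockout replicates 1 to 5 it was 1.54, 10.9, 7.48, 2.65 and 1.75 CPM. Wild-type replicate 4 was the highest and knockout replicate 1 the lowest, 3 knockout libraries lay below every wild-type library, and the groups overlapped. The log2 fold change was -1.54 (95% interval -2.95 to -0.14, edgeR adjusted p = 0.354), from a mean of 14.3 ± 10.9 CPM to 4.87 ± 4.16 CPM (SD, n = 5 each).

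The uroplakins are membrane proteins best known from the plaques of the bladder surface. Upk3b, which in the mouse is also a marker of mesothelium (ENSMUSG00000042985; chromosome 5, 136038496 to 136046487, plus strand), was at 140.6, 43.2, 92.1, 267.7 and 65.6 CPM in wild-type replicates 1 to 5. The knockout libraries had 27.3, 111.8, 84.4, 41.6 and 29.1 CPM in the same order. Again wild-type replicate 4 was highest, knockout replicate 2 led its group, and 3 knockout libraries lay below all wild-type libraries. The log2 fold change was -1.05 (95% interval -2.18 to 0.09, edgeR adjusted p = 0.401). Upk1b, a uroplakin of the tetraspanin family (ENSMUSG00000049436; chromosome 16, 38773184 to 38800328, minus strand), was at 115.9, 32.7, 93.7, 168.6 and 56.9 CPM in wild type. In knockout it was at 22.5, 85.0, 69.9, 37.6 and 36.8 CPM. The order of the libraries was close to that of Upk3b, and 5 of 5 knockout libraries lay below the wild-type median. Its log2 fold change was -0.89 (95% interval -1.86 to 0.07, edgeR adjusted p = 0.400). Per length, these were the most abundant of the 10 genes, at 34.4 CPM per kb for Upk1b and 25.6 CPM per kb for Upk3b over all libraries.

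The transcription factors of this group showed smaller differences. Wt1 encodes a zinc-finger factor of the developing and adult mesothelium (ENSMUSG00000016458; chromosome 2, 105126529 to 105173616, plus strand). Its level was 24.6, 9.84, 20.6, 62.9 and 13.6 CPM in wild-type replicates 1 to 5 and 20.7, 18.4, 17.8, 15.4 and 7.93 CPM in knockout replicates 1 to 5. Wild-type replicate 4 stood above all others, and the remaining libraries of both groups covered much the same range. The means were 26.3 ± 21.3 and 16.04 ± 4.90 CPM (SD, n = 5 each), for a log2 fold change of -0.71 with an edgeR adjusted p of 0.481. Without wild-type replicate 4 the log2 fold change of Wt1 was -0.11. Knockout replicate 1, the lowest library for Msln, Upk3b and Upk1b, was the highest knockout library for Wt1. Bnc1 encodes basonuclin 1, a zinc-finger protein of some epithelia and of germ cells (ENSMUSG00000025105; chromosome 7, 81966672 to 81992292, minus strand). Its mean was 11.2 ± 8.75 CPM in wild type against 8.99 ± 3.97 CPM in knockout (SD, n = 5 each), for a log2 fold change of -0.31 with an edgeR adjusted p of 0.755. For Bnc1 0 knockout libraries fell outside the wild-type range on the low side.

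Lrrn4 encodes a membrane protein with leucine-rich repeats and is a mesothelial marker in the mouse (ENSMUSG00000043110; chromosome 2, 132868305 to 132880891, minus strand). It was at 30.8, 16.6, 20.3, 58.3 and 13.4 CPM in wild type and at 12.6, 47.4, 38.6, 19.0 and 9.53 CPM in knockout. Knockout replicates 2 and 3 exceeded 4 of the 5 wild-type libraries, and the groups overlapped over most of their range. The log2 fold change was -0.13 (95% interval -1.21 to 0.94, edgeR adjusted p = 0.916). The sign of Lrrn4 turned without wild-type replicate 4 (0.31), knockout replicate 1 (0.03) or knockout replicate 5 (0.07), and that of Bnc1 without wild-type replicate 4 (0.25).

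**Figure D1:**
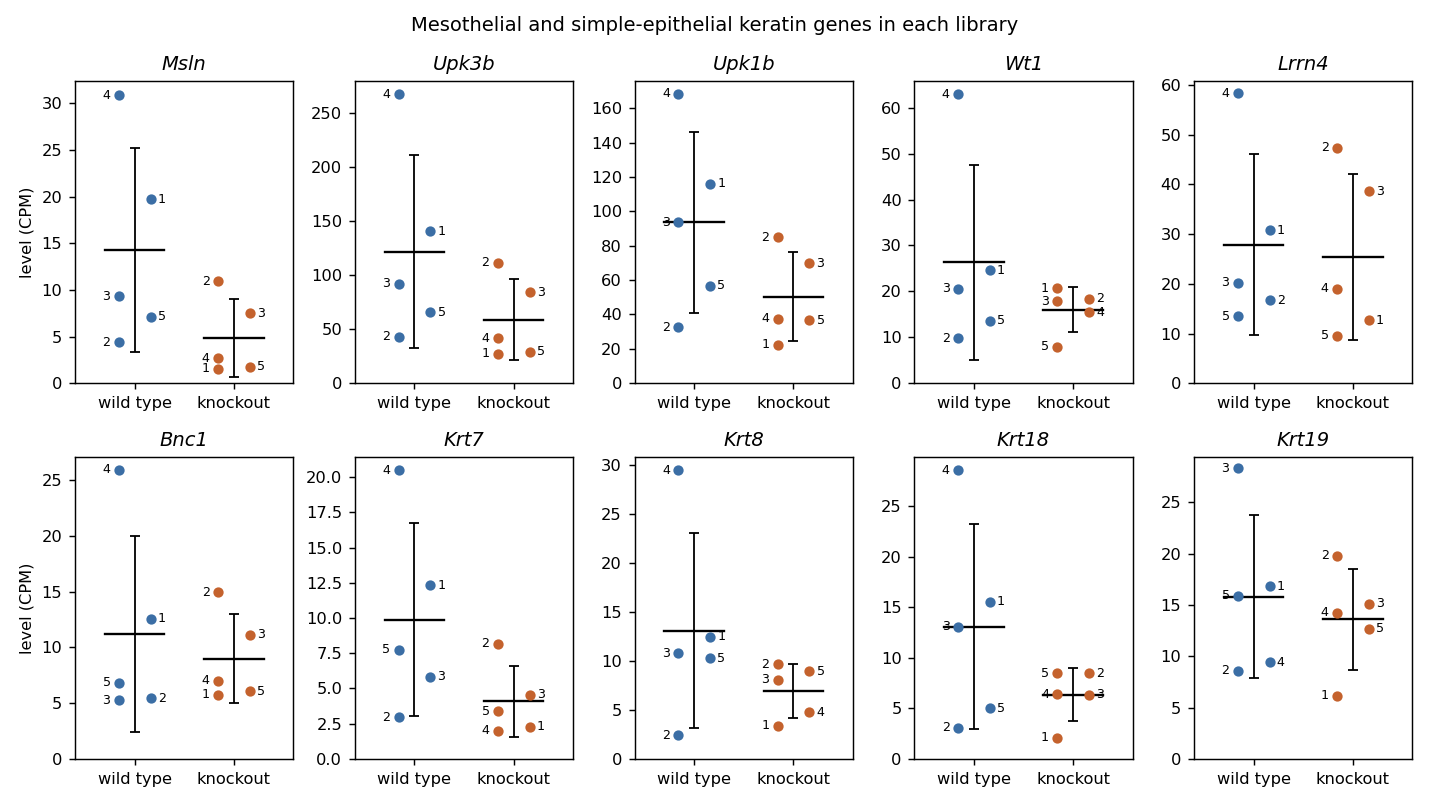
Level in CPM of each of the 10 genes in each library (points, numbered by replicate), with the group mean (horizontal line) and SD (error bar, n = 5). Wild-type replicate 4 is the highest library for 9 of the 10 genes, Krt19 being the exception, and the groups overlap for all 10.

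The keratins of simple epithelium were lower in abundance than the uroplakins. Krt7, a type II keratin (ENSMUSG00000023039; chromosome 15, 101411043 to 101430313, plus strand), was at 12.3, 2.95, 5.84, 20.5 and 7.73 CPM in wild-type replicates 1 to 5. Knockout replicates 1 to 5 had 2.295, 8.18, 4.56, 1.99 and 3.39 CPM. Its 2 highest libraries were wild-type replicates 4 and 1, and 2 knockout libraries lay below all wild-type libraries. The log2 fold change was -1.26 (95% interval -2.38 to -0.14, edgeR adjusted p = 0.350), the lowest adjusted p among the 10 genes. The deposited length of Krt7 is 7049 bases, against 1958 for Krt8, and its level per length was 0.990 CPM per kb.

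Krt8 (type II; ENSMUSG00000049382; chromosome 15, 101996698 to 102004482, minus strand) and Krt18 (type I; ENSMUSG00000023043; chromosome 15, 102028180 to 102032027, plus strand) are partners in the filaments of simple epithelia. Krt8 was at 12.5, 2.40, 10.8, 29.5 and 10.2 CPM in wild type and 3.36, 9.63, 8.06, 4.74 and 8.93 CPM in knockout. Here 4 of 5 wild-type libraries lay above every knockout library, and wild-type replicate 2 lay below all of them. Krt18 was at 15.5, 3.08, 13.1, 28.5 and 4.99 CPM in wild type and 2.09, 8.45, 6.36, 6.40 and 8.48 CPM in knockout. Wild-type replicates 1, 3 and 4 were above all knockout libraries, and replicates 2 and 5 were within the knockout range. The log2 fold changes were -0.91 for Krt8 (95% interval -2.03 to 0.21, edgeR adjusted p = 0.442) and -1.04 for Krt18 (95% interval -2.23 to 0.16, edgeR adjusted p = 0.417).

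The balance of the partners was examined as the log2 ratio of Krt8 to Krt18 counts, which needs no scaling between libraries. It was -0.32, -0.36, -0.28, 0.05 and 1.03 in wild-type replicates 1 to 5 and 0.68, 0.19, 0.34, -0.43 and 0.07 in knockout replicates 1 to 5. The ratio lay between -0.43 and 0.68 in every library but wild-type replicate 5, where Krt8 counts were 2.05 times those of Krt18. The means were 0.02 ± 0.59 and 0.17 ± 0.41 (SD, n = 5 each), a difference of 0.15 with p = 0.659 in an exact two-sided permutation test, whose smallest possible p is 0.00794. Without wild-type replicate 5 the difference was 0.40 (exact p = 0.143). Across libraries Krt8 spanned a 12.3-fold and Krt18 a 13.7-fold range of CPM.

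**Figure D2:**
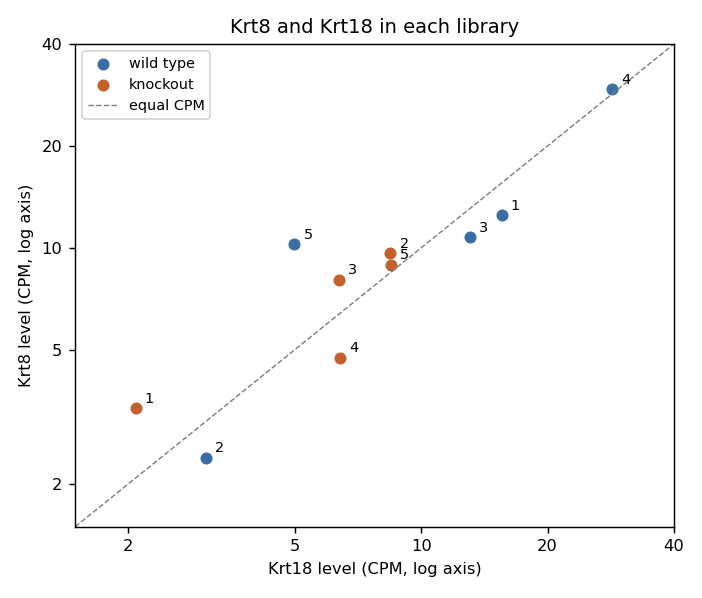
Krt8 against Krt18 in each library, in CPM on log axes, with points numbered by replicate and a dashed line of equal CPM. Libraries lie along the line from knockout replicate 1 (3.36 and 2.09 CPM) and wild-type replicate 2 (2.40 and 3.08 CPM) to wild-type replicate 4 (29.5 and 28.5 CPM), and wild-type replicate 5 lies above it.

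Krt19 is a small type I keratin that lacks the usual tail domain (ENSMUSG00000020911; chromosome 11, 100140810 to 100148665, minus strand, 5.14 Mb from Mrc2). It was at 16.9, 8.58, 28.3, 9.43 and 15.9 CPM in wild type and 6.17, 19.8, 15.1, 14.2 and 12.7 CPM in knockout. Wild-type replicate 3 was the highest library, while wild-type replicate 4, highest for each of the other 9 genes, was the second lowest of its group. The log2 fold change was -0.22 (95% interval -0.99 to 0.56, edgeR adjusted p = 0.785), and it was 0.10 without wild-type replicate 3.

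Taking the 10 genes as a list, 0 passed edgeR's test over all 14360 genes, where 0.0139% of all genes passed. All 10 log2 fold changes were below 0, as were 51.6% of all genes tested, with a median of -0.90 (0.535-fold) against -0.01 for all genes. Most of the 10 varied together over the libraries, so their signs are not separate results. Without adjustment 2 of the 10 (Msln and Krt7) were lower at p under 0.05, where 6.1% of all genes were (13.3% in either direction). With a library left out this count of members was 7 without wild-type replicate 2, 5 without wild-type replicate 5 and 4 without knockout replicate 2. It was 0 without wild-type replicate 1 or 4 or knockout replicate 1, 4 or 5. The share of all genes at this threshold was not computed with a library left out, so these counts have no background. DESeq2 called 0 of them after adjustment (1.69% of all genes), and 5 were lower at an unadjusted p under 0.05, where 6.91% of all genes were. With limma-voom the adjusted test called 0 (0.00696% of all genes) and the unadjusted one 1, against 6.34%. The groups overlapped for all 10 genes, whereas 2.05% of all genes tested had no overlap. The 95% interval of edgeR included 0 for 8 of the 10 genes, and it included a halving of expression (a log2 fold change of -1) for 9 of them, so a difference of that size could not be told from none for most members. Without wild-type replicate 4 the median was -0.45 and 8 of 10 were below 0. In bulk RNA, fewer cells of a type and less RNA per cell cannot be told apart.

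**Figure D3:**
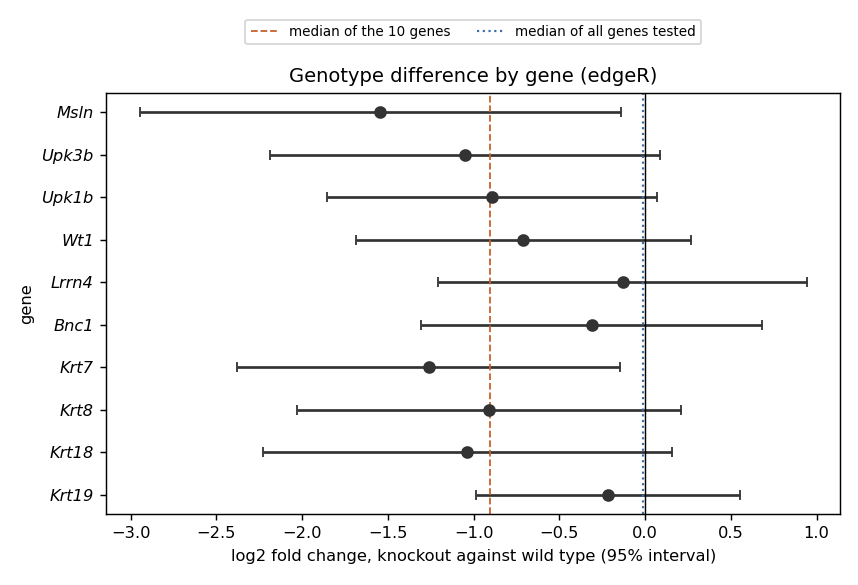
Log2 fold change of each gene, knockout against wild type, with its 95% interval from edgeR's quasi-likelihood fit (n = 5 libraries a group). The dashed line is the median of the 10 genes (-0.90) and the dotted line that of all genes tested (-0.01), and the intervals of Msln and Krt7 are the 2 that do not reach 0.

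Libraries of the same genotype differed widely in these genes. The highest wild-type library exceeded the lowest by 3.30-fold (Krt19) to 12.3-fold (Krt8), and in knockout the range was 2.60-fold (Bnc1) to 7.09-fold (Msln). The SD of log2 CPM within genotype was 1.18 for Msln, larger than in 99.1% of tested genes. It was 1.08 for Krt18 and 1.02 for Krt8, at percentiles 98.5 and 98.0. Krt19 had the smallest SD, 0.66, at percentile 88.4, and Mrc2, for comparison, had 0.27, at percentile 39.7. The lowest count of any of the 10 genes in any library was 35 (Msln in knockout replicate 5), and the part of counting error in the spread was not tested.

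**Figure D4:**
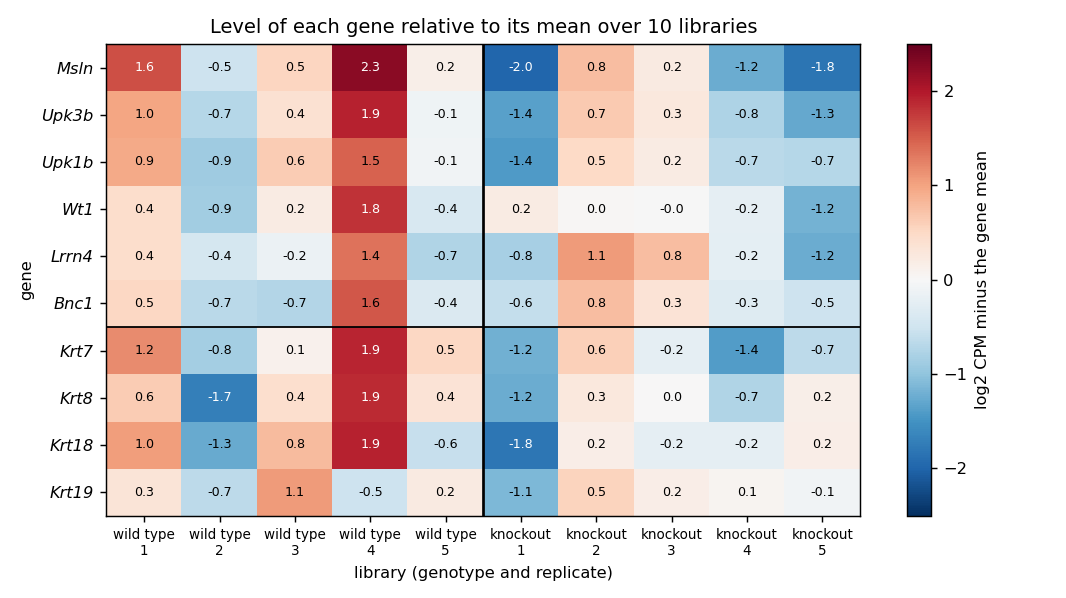
Log2 CPM of each gene minus its mean over the 10 libraries, by library, with mesothelial genes above the line and keratins below. Wild-type replicates 1, 3 and 4 and knockout replicates 2 and 3 are above the mean for most genes. Wild-type replicates 2 and 5 and knockout replicates 1, 4 and 5 are below it for most genes.

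Over the 10 libraries most pairs of these genes varied together. Among the 15 pairs of mesothelial genes, Pearson's r of log2 CPM over the 10 libraries was 0.711 to 0.984, and 0.675 to 0.990 after the mean of each genotype was removed. By rank the mesothelial pairs with Wt1 or Bnc1 were looser, with Spearman's rho of 0.442 to 0.721 and adjusted permutation p of 0.0602 to 0.22. Without the 2 libraries farthest from the median of Wt1, r was 0.417 for Wt1 with Bnc1 and 0.370 for Wt1 with Lrrn4. Wt1 with Msln, Upk3b or Upk1b instead had r of 0.844, 0.908 and 0.884 without the 2 libraries farthest from the partner's median. Msln and Upk3b, on different chromosomes, ranked the 10 libraries identically (r = 0.984, Spearman's rho = 1.0; permutation p = 1e-05 for both, the smallest that 100000 permutations can give; adjusted p = 0.00045 over 45 pairs), and r was 0.977 without the 2 libraries farthest from the median of Msln. Krt8 and Krt18 followed each other (r = 0.901, permutation p = 0.0008, adjusted p = 0.00327; rho = 0.842, permutation p = 0.00378, adjusted p = 0.0149), with r = 0.822 without the 2 libraries farthest from the median of Krt8. Between the mesothelial genes and Krt7, Krt8 or Krt18, r was 0.572 to 0.927, highest for Msln with Krt7 (r = 0.927, permutation p = 0.0002, adjusted p = 0.0018; rho = 0.903, permutation p = 0.00079, adjusted p = 0.00592; r = 0.869 without the 2 farthest libraries). Msln with Krt8 rested more on the extreme libraries, with r = 0.758 (permutation p = 0.0108, adjusted p = 0.0194; rho = 0.806, permutation p = 0.00716, adjusted p = 0.0215) and r = 0.5004 without the 2 farthest. Among the knockout libraries Wt1 departed from keratins and from other mesothelial genes alike. Knockout replicate 1 had the highest Wt1 of that group (20.7 CPM) and its lowest Krt8 and Krt18 (3.36 and 2.09 CPM). It also had the lowest Msln, Upk3b and Upk1b (1.54, 27.3 and 22.5 CPM). All pairs share the same libraries and scaling, and the genes were chosen as markers of the same cells.

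Krt19 had the lowest correlations over the 10 libraries. Its r with the other 9 genes was -0.05 (Wt1) to 0.52 (Upk1b), and none had a permutation p under 0.05. With Krt8 it was 0.407 (permutation p = 0.241, adjusted p = 0.278; rho = 0.552, permutation p = 0.105, adjusted p = 0.147), and 0.794 without the 2 libraries farthest from the median of Krt8. Wild-type replicate 4 ranked first of the 10 libraries for Krt8 and 8th for Krt19. Among the knockout libraries the extremes matched: Krt19, Krt8, Msln, Upk3b and Upk1b were all highest in replicate 2 and lowest in replicate 1.

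**Figure D5:**
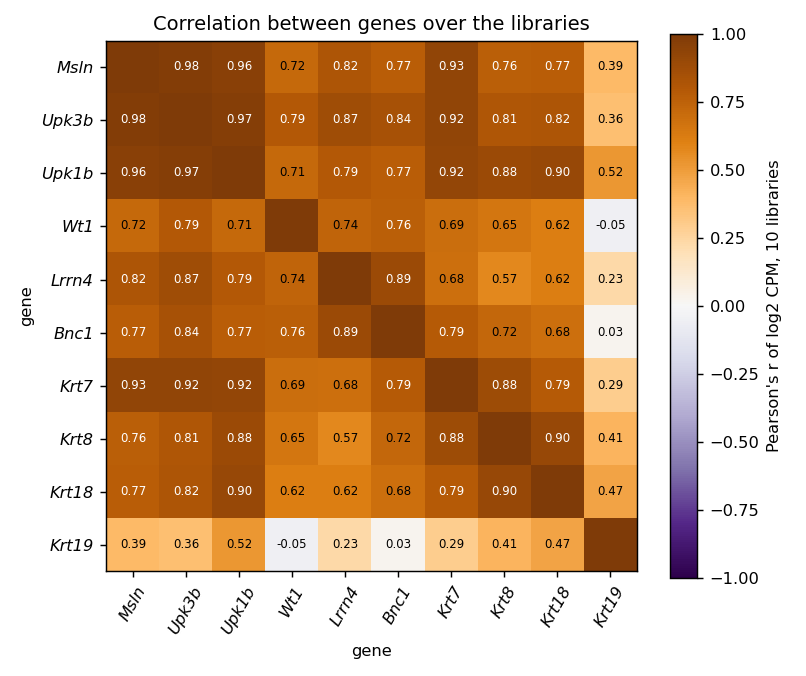
Pearson's r of log2 CPM over the 10 libraries for each pair of the 10 genes. Values among the mesothelial genes and Krt7, Krt8 and Krt18 are 0.572 or higher, and those with Krt19 lie between -0.05 and 0.52.

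Summed over the 6 mesothelial genes, the level ran from 112 CPM in wild-type replicate 2 to 614 CPM in wild-type replicate 4 (median 241), and from 90.4 CPM in knockout replicate 1 to 288 CPM in knockout replicate 2 (median 123). Leukocyte markers were lowest in wild-type replicate 4 (2280 CPM summed) and, within knockout, in replicate 2 (2723 CPM), the libraries with the highest mesothelial sums of their genotypes. Wild-type replicate 5 had the most leukocyte RNA (11279 CPM) and 163 CPM of mesothelial RNA. Knockout replicate 1 went the other way, with the lowest mesothelial sum but 3228 CPM of leukocyte markers, against 6088 CPM in knockout replicate 5. Most of the leukocyte sum was Lyz2 RNA, which averaged 5297 CPM over wild-type libraries and 3454 CPM over knockout ones. Pearson's r with the mean centred log2 CPM of the 6 mesothelial genes was -0.739 (Adgre1) to -0.383 (Cd14) over the 8 leukocyte markers. The fibroblast sum was above every wild-type library in 4 of 5 knockout libraries. It was 20430 CPM in wild-type replicate 4 and 33924 CPM in knockout replicate 1. Most of it was collagen RNA: Col1a1, Col1a2 and Col3a1 averaged 8540, 7080 and 2399 CPM in wild type. In knockout they averaged 14765, 10022 and 5842 CPM. Pdgfra, Pdgfrb and Thy1 had log2 fold changes of 0.41, 0.31 and 0.07, against -0.45 for Dcn and -0.77 for Lum. The sum is thus no measure of the share of fibroblasts. The part of leukocyte and fibroblast RNA in the genotype differences was not tested. Most lung epithelial markers were at or near the floor, and 10 of 12 had too few counts to be tested. Of these, 3 (Sftpd, Lamp3 and Cldn18) had 0 counts in all libraries. Epcam, Sftpc and Scgb1a1 had at most 2, 4 and 1 counts in a library. Cdh1 and Ager, the 2 tested, reached 31 and 79 counts in a library. Their log2 fold changes were 0.39 and -0.30 (edgeR adjusted p of 0.633 and 0.738). The summed level of the 12 genes was 2.61 to 4.02 CPM in wild type and 1.27 to 4.64 CPM in knockout. Most of that sum was Ager (2.25 ± 0.38 CPM in wild type, SD, n = 5), a gene of alveolar type I cells that other cells also express at a low level. Endothelial markers summed to 2.68 to 7.77 CPM in wild type and 3.44 to 10.2 CPM in knockout. Smooth muscle and pericyte markers summed to 841 to 2371 CPM in wild type, against 1542 to 2175 CPM in knockout. The median log2 fold change of these 6 genes was 0.40, against -0.01 for all genes, and 0 passed edgeR's test. Of them 4 were above 0 and 2 below, where 51.6% of all genes tested were below 0. At an unadjusted p under 0.05 there were 2, against 13.3% of all genes tested. They were Notch3 (1.03, edgeR adjusted p = 0.306) and Myh11 (0.82, edgeR adjusted p = 0.350), both higher in knockout and named after their values were seen. Cnn1 (0.34) and Rgs5 (0.46) were also above 0, while Des (-0.28) and Cspg4 (-0.16) were below. Rgs5 was low in abundance, with no library above 1.43 CPM. The part of smooth muscle and pericyte RNA in the members' differences was not tested.

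Other genes known from mesothelium had the same sign. Of 9 listed genes 7 were tested, all 7 had a log2 fold change below 0 (51.6% of all genes tested) with a median of -0.85, and 0 passed edgeR's test. Most of them followed the members over the same libraries, so their signs are not separate evidence. Pearson's r with the mean centred log2 CPM of the 6 mesothelial genes was 0.195 for Nkain4. For the other tested genes it was 0.734 to 0.965. The list was also chosen with earlier results of these data known. At an unadjusted p under 0.05, edgeR had 3 of the 7 (13.3% of all genes tested), DESeq2 4 (15.6% of all) and limma-voom 1 (12.6% of all), and after adjustment DESeq2 and limma-voom called 0. Pdpn, which encodes the surface mucin podoplanin and which fibroblasts make too, stood at 426 ± 66.3 CPM in wild type against 292 ± 71.2 CPM in knockout (SD, n = 5 each), for a log2 fold change of -0.54 with an edgeR adjusted p of 0.291. Cldn15, a pore-forming claudin of tight junctions, was at 6.33 ± 4.18 and 3.06 ± 1.09 CPM (log2 fold change -1.03; edgeR adjusted p = 0.353). Nkain4, which interacts with the sodium pump, and Rspo1, a secreted enhancer of Wnt signalling, had log2 fold changes of -0.85 and -0.90 (edgeR adjusted p of 0.355 and 0.387). Calb2, which encodes the classic human mesothelial marker calretinin, had at most 2 counts in a library, and Dmkn at most 5.

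Most keratins outside the group of 4 had no counts or too few to be tested. Of 45 other protein-coding keratin genes, 20 had 0 counts in every library and 3 were tested: Krt20, Krt10 and Krt80. Krt20, a keratin of intestinal and urothelial cells, had 57 to 146 counts in each library. Its level per length (2.32 CPM per kb over all libraries) was above that of Krt7 (0.990 CPM per kb). This order of the means turned on the deposited lengths, 1927 bases for Krt20 and 7049 for Krt7. Before division by length the Krt7 means were the higher (wild type 9.87 CPM, knockout 4.08 CPM). The knockout medians went the other way (3.39 CPM for Krt7, 4.41 CPM for Krt20). Krt20 was at 5.09 ± 1.80 CPM in wild type against 3.84 ± 1.35 CPM in knockout (SD, n = 5 each). Its log2 fold change was -0.41, with an edgeR adjusted p of 0.554. Krt10, of the upper epidermis, and Krt80 had log2 fold changes of 0.31 and 0.08 (edgeR adjusted p of 0.623 and 0.938). Of 4 other uroplakins only Upk1a was tested (0.562 ± 0.133 and 0.400 ± 0.237 CPM, SD, n = 5 each; the log2 fold change was -0.45, with an edgeR adjusted p of 0.614), and the bladder genes Upk2 and Upk3a had at most 1 count in a library. Among these keratins and uroplakins 0 passed without adjustment by edgeR, DESeq2 or limma-voom.

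Genes of epithelial junctions went both ways. Of 25 listed genes 15 were tested, 11 below 0 and 4 above (51.6% of all genes tested were below 0), with a median of -0.14 against -0.01 for all genes, and 0 passed edgeR's test. At an unadjusted p under 0.05, edgeR had 3 of the 15 (13.3% of all genes tested), DESeq2 4 (15.6% of all) and limma-voom 3 (12.6% of all), and after adjustment DESeq2 and limma-voom called 0. Tjp1, the tight-junction scaffold ZO-1 that many cell types make, had a log2 fold change of 0.64 (edgeR adjusted p = 0.343), while the claudin gene Cldn3 had -1.02 (adjusted p = 0.361). Cldn3 was low in abundance, with 7 to 41 counts in each library. Itgb4, the integrin chain of hemidesmosomes, had a log2 fold change of -0.56 (edgeR adjusted p = 0.392). The fibroblast filament gene Vim, which encodes vimentin, was at 3115 ± 479 CPM in wild type against 2641 ± 256 CPM in knockout (SD, n = 5 each), giving a log2 fold change of -0.24 with an edgeR adjusted p of 0.481. Of 6 other filament and linker genes, Vim among them, 4 were below 0 and 2 above, with 0 at an unadjusted p under 0.05 by edgeR, DESeq2 or limma-voom. Synm (synemin, a filament protein), Plec (plectin, a filament linker) and Des (desmin, the muscle filament) had log2 fold changes of 0.35, 0.17 and -0.28 (edgeR adjusted p of 0.494, 0.546 and 0.721).

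The genes whose levels over the 10 libraries were most like the members were sought among 12034 other genes whose log2 CPM averaged 1 or more, by Pearson's r with the mean centred log2 CPM. Closest to the 6 mesothelial genes was Ezr, which encodes ezrin, a linker of membrane and actin in microvilli (r = 0.969, Spearman's rho = 0.952). It ran from 66.5 to 371 CPM and had a log2 fold change of -0.64 (edgeR adjusted p = 0.448). Next came Gpm6a, a membrane glycoprotein gene of the wider mesothelial list (r = 0.965, rho = 0.952), Megf6 (0.934, 0.758), the endocytic receptor gene Lrp2 (0.931, 0.927) and the laminin receptor chain gene Itga3 (0.925, 0.794). For the 4 keratins the closest were Dusp5, which encodes a phosphatase of ERK kinases (r = 0.931, rho = 0.903), Ezr again (0.924, 0.964), Ppp1r13l, whose product inhibits p53 (0.917, 0.915), the protease gene Prss12 (0.915, 0.915) and the cytokine gene Il18 (0.909, 0.915). These r values are the highest of many and describe these libraries only.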

How the data were processed

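The authors deposited 1 table of raw read counts per Ensembl gene for 10 libraries; STAR 2.5, HTSeq 0.6.1 and DESeq2 2 appear in the submitters' processing notes with the mm10 build, without roles. The sources used here give no strand setting or annotation release, so reads of overlapping genes cannot be told apart; 3 of the 10 genes (Bnc1, Krt7 and Krt8) overlap another gene, each with at most 6 counts in a library. Gene lengths are those deposited, as other columns of the table. Groups and replicate numbers came from the titles. Totals were 19603933 to 29944615 counts, and library pairs differed by a chi-square of at least 12.6 per degree of freedom, so all 10 were kept as separate samples.

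Of 28582 genes with a count above 0, filterByExpr kept 14360. Genotypes were compared with edgeR 4.0.16 (R 4.3.3), by its quasi-likelihood F test, with TMM scaling and no covariate (biological coefficient of variation 26.2%), adjusted by Benjamini-Hochberg over all genes; SE was the absolute log2 fold change over the square root of F. The code was tested on simulated counts. CPM used TMM-scaled totals, and log2 CPM a prior count of 2. The ratio of Krt8 to Krt18 (0.5 added to each count) was compared by exact permutation, and correlations by 100000 permutations. Alternatives were other size factors and filters, DESeq2 1.42.0, limma-voom (limma 3.58.1), a replicate block and each library left out. From each list up to 4 genes with the smallest p were named; 1 of them is not reported here. The members and lists were chosen with earlier results of these data known. Promoters are from RefSeq.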

Additional observations from a re-analysis of the deposited data

Results flagged for a closer look

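Of 80 sets of 5 values examined by Dixon's test, 4 held a library far from the others, where chance flags about 1 in 20. Wt1 in wild-type replicate 4 (62.9 CPM) stood above the next library (24.6 CPM), with gene levels tested as CPM rather than on a log scale. The log2 ratio of Krt8 to Krt18 in wild-type replicate 5 (1.03) stood above the next (0.05). It passed the test narrowly, with a gap of 0.7103 of the range against a cutoff of 0.71. Des in knockout replicate 5 (525.7 CPM, next 273 CPM) was high in its group. The summed level of the 6 other filament and linker genes, Des included, was also high in knockout replicate 5 (4934 CPM, next 4198 CPM).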

How the results depend on the processing

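Of the 10 genes, 0 were called under the 16 alternatives, DESeq2 and limma-voom included (lowest adjusted p = 0.180, Krt7 without knockout replicate 5), and 0 of the 26 genes examined one by one, Mrc2 aside, gained a call. The count of all genes called was 2. It was 243 with DESeq2, 1 with limma-voom and 0 with the replicate block, and 1 to 203 with a library left out, the highest without knockout replicate 5. Mrc2 kept its direction, and lost its call with the replicate block (log2 fold change -1.78, adjusted p = 0.0542), where fewer residual degrees of freedom remain. Signs of the log2 fold change turned with a library left out for 5 genes: Lrrn4 (-0.48 to 0.31), Bnc1 (-0.58 to 0.25), Krt19 (-0.39 to 0.10), Krt80 (-0.22 to 0.27) and Des (-0.54 to 0.042, positive without wild-type replicate 3); the other alternatives turned none. Mrc2 lay between -1.92 and -1.73, and the difference in the Krt8 to Krt18 ratio between 0.02 and 0.40, with a library left out; with same-numbered libraries paired the ratio's exact p was 0.625. The titles do not say whether same-numbered libraries are pairs, and correlation between them cannot settle it. Deviations of same-numbered libraries correlated at -0.236 to 0.376, over 0.1 in 2 of 5 pairs. Only 1 of 5 wild-type and 1 of 5 knockout libraries correlated best with its own number. Of the 10 genes, 0 had an unadjusted p under 0.05 with the block, and 0 to 7 with a library left out. The share of all genes at that threshold was not computed in these settings. Depth did not limit detection of the 10 genes, with 35 or more counts in each library.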
